A study of Trametes versicolor with 3 samples.

Results

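The genes described here are 3 of the 11480 gene models with reads in Trametes versicolor, a white-rot fungus of hardwood. They are the cellobiohydrolase I paralogs jgi|Trave1|111060 and jgi|Trave1|124636 and the cellobiohydrolase II gene jgi|Trave1|64096, hereafter Trave1_111060, Trave1_124636 and Trave1_64096. They were chosen by their levels in these same libraries, so those levels, their order and the ratios between media are a description and were not tested. Mycelium was taken after 9 days, when the mat had reached 4 cm, from PDA (potato dextrose agar, a rich culture medium), from a medium with glucose as carbon source or from a medium made with poplar, and polyadenylated RNA of 1 library per medium was sequenced. The isolate came from the China Center of Industrial Culture Collection and no genetic change is given. The labels' growth protocol names PDA and 25 °C for every sample, in conflict with the source names, from which the media were taken.

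Cellobiohydrolases are secreted enzymes that run along a cellulose chain and release the disaccharide cellobiose. Cellobiohydrolase I works from the reducing end of the chain and cellobiohydrolase II from the non-reducing end. Endoglucanases cut within the chain and open new ends for them, lytic polysaccharide monooxygenases cleave crystalline cellulose oxidatively, and beta-glucosidases split cellobiose to glucose. In many filamentous fungi, cellulase genes are induced by products of cellulose breakdown and repressed by glucose, and white-rot fungi usually carry several cellobiohydrolase I genes beside few or single cellobiohydrolase II genes.

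The libraries held between 2.68 and 2.85 M uniquely assigned reads, on 10871 to 11101 gene models. Levels are deposited RPKM, reads scaled to the length of the gene model and to the size of the library, so levels of different genes can be set side by side. Values on a medium are those of its 1 library, so there was no replicate error and no test between media. The 95% intervals given cover counting error only, not differences between cultures or libraries. PCR copies without molecular identifiers are not independent molecules, so the intervals may be too narrow even for counting error. More hyphae transcribing a gene and more RNA per hypha cannot be told apart.

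The names repeat the deposited protein descriptions, which are therefore no separate check of them. KEGG names are given beside them. Trave1_111060 and Trave1_124636 have a best protein match described as cellobiohydrolase I, and both carry the KEGG names cellulose 1,4-beta-cellobiosidase and endoglucanase. Trave1_64096 matches cellobiohydrolase II, although its KEGG names are endo-1,4-beta-xylanase and beta-glucosidase. The 3 gene models are nearly equal in length, at 1371, 1374 and 1368 bases of coding sequence. Another 2 gene models are described as cellobiohydrolase I, Trave1_112433 and Trave1_126211, both 1371 bases long. They are not among the chosen genes and are given beside them below.

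All 3 genes were lowest on PDA, and the paralogs of cellobiohydrolase I differed in which of the other media had more. Cellobiohydrolase II was the highest of the 3 in every library. Trave1_111060 was far above Trave1_124636 on glucose and below it on PDA and poplar.

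Trave1_64096, the cellobiohydrolase II gene, measured 153 RPKM on PDA, 3868 on glucose and 1646 on poplar, from 595, 14170 and 6306 reads. The glucose library was highest, the PDA library was lowest, and the counting intervals did not overlap (141 to 165, 3804 to 3932 and 1606 to 1688 RPKM). Among all gene models of a library it ranked 1063rd by level on PDA, 24th on glucose and 77th on poplar. Its level was 25.4-fold higher on glucose than on PDA (95% counting interval 23.4 to 27.6) and 10.8-fold higher on poplar than on PDA (9.92 to 11.8). Between glucose and poplar it was 2.35-fold lower on poplar (2.28 to 2.42).

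Trave1_111060, a cellobiohydrolase I, had 30 reads on PDA, 5699 on glucose and 2331 on poplar. These came to 7.68 RPKM (5.18 to 10.96), 1552 RPKM (1512 to 1593) and 607 RPKM (583 to 632). It followed the same order as cellobiohydrolase II, glucose above poplar above PDA, over a wider range. The glucose library stood 202-fold above the PDA library (142 to 300.01). The poplar library stood 79.1-fold above the PDA library (55.3 to 118) and 2.56-fold below the glucose library (2.44 to 2.68). On the log2 scale of RPKM plus 1 the difference between glucose and PDA was 7.48, which ranked 1st of 10487 measured gene models. Cellobiohydrolase II ranked 20th and Trave1_124636 141st. These ranks depend on the 1 RPKM added. Without it, Trave1_69299, described as glycoside hydrolase family 61, had a larger fold of 448 (80.0 to 17743), from 1 read on PDA. The folds of Trave1_111060 against PDA rest on its 30 reads there, where the deposited coverage of the gene model was 59.5%. In the glucose and poplar libraries its deposited coverage was 99.6% and 99.5%.

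Trave1_124636, the other cellobiohydrolase I, measured 45.2 RPKM on PDA (38.8 to 52.4), 313 on glucose (296 to 332) and 893 on poplar (864 to 924), from 177, 1153 and 3437 reads. Here the poplar library was highest, and none of these intervals overlapped. The poplar level was 2.85-fold above the glucose level (2.67 to 3.05) and 19.8-fold above the PDA level (17.0 to 23.1). The glucose level was 6.93-fold above the PDA level (5.91 to 8.17), the smallest of the 3 genes' differences between those libraries. By level it ranked 2942nd on PDA, 566th on glucose and 179th on poplar. The deposited coverage of Trave1_124636 and of Trave1_64096 was at least 98.8% in every library. How far reads shared between the paralogs lowered the counts was not tested.

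**Figure D1:**
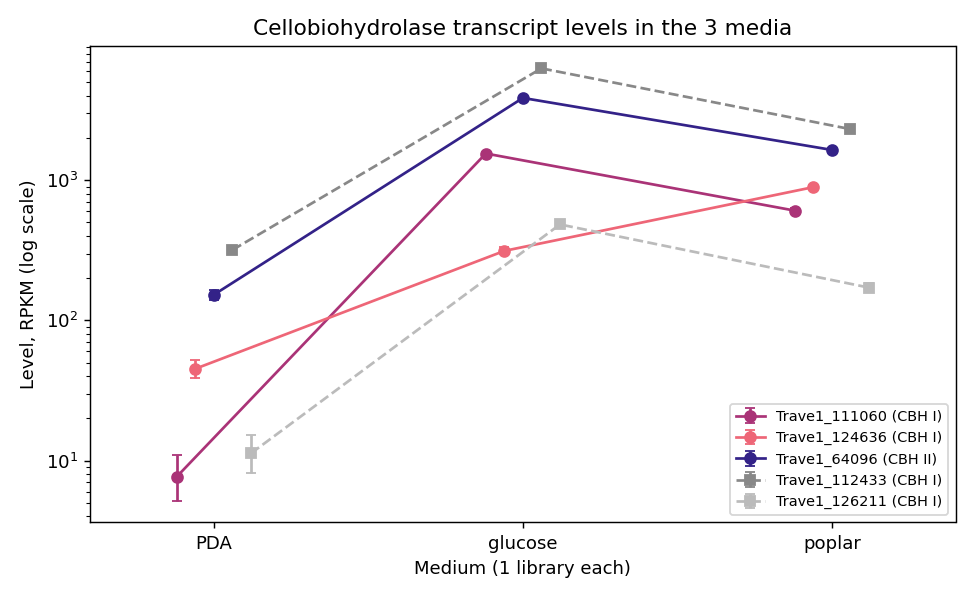
Levels in RPKM on a log axis for the 5 gene models described as cellobiohydrolase I or II, with 1 library per medium on the horizontal axis. Bars are 95% Poisson counting intervals, often smaller than the symbol, lines only join points of one gene, and circles mark the chosen genes. Trave1_124636 is the gene that is higher on poplar (893 RPKM) than on glucose (313 RPKM).

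Within each library the order of the 3 levels could be read beyond counting error, with no overlap between neighbours. In the PDA library the order was Trave1_64096, Trave1_124636 and Trave1_111060, and the cellobiohydrolase I paralogs differed 5.89-fold in favour of Trave1_124636 (3.98 to 8.98). In the glucose library the paralogs changed places, with Trave1_111060 4.95-fold above Trave1_124636 (4.65 to 5.28). In the poplar library Trave1_124636 was again the higher paralog, by 1.47-fold (1.40 to 1.55).

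Together the 3 genes took 0.0281% of all assigned reads on PDA (exact binomial interval 0.0262 to 0.0301), 0.785% on glucose (0.774 to 0.796) and 0.431% on poplar (0.424 to 0.439). As a share of assigned reads they were 27.9-fold higher on glucose than on PDA (26.0 to 29.98) and 15.3-fold higher on poplar than on PDA (14.3 to 16.5). They were 1.82-fold lower on poplar than on glucose (1.78 to 1.86).

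The make-up of this sum differed between media. Of the summed RPKM of the 3 genes, cellobiohydrolase II made up 74.3% on PDA, 67.5% on glucose and 52.3% on poplar. Trave1_124636 made up 22.0%, 5.47% and 28.4% in the same order, and was the smallest component on glucose. Trave1_111060 made up 3.74%, 27.1% and 19.3%, and was the smallest on PDA and poplar. The summed level of the chosen cellobiohydrolase I pair over that of cellobiohydrolase II was 0.346 on PDA (0.295 to 0.407), 0.482 on glucose (0.468 to 0.496) and 0.911 on poplar (0.880 to 0.945).

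The most abundant gene model described as cellobiohydrolase I is not among the chosen genes. Trave1_112433 measured 318 RPKM on PDA, 6288 on glucose and 2317 on poplar, above all 3 chosen genes in each. It ranked 14th of all gene models by level on glucose and 5th by reads. Trave1_126211 measured 11.3, 484 and 171 RPKM in the same order of media. Both had glucose above poplar above PDA, like Trave1_111060 and cellobiohydrolase II, and were 2.71-fold (2.65 to 2.78) and 2.82-fold (2.58 to 3.09) lower on poplar than on glucose. In the PDA library the counting intervals of Trave1_126211 (8.18 to 15.1 RPKM) and Trave1_111060 overlapped, so their order there could not be read.

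Over the 4 cellobiohydrolase I gene models, Trave1_124636 held 11.8% of the summed level on PDA, 3.63% on glucose and 22.4% on poplar. Trave1_112433 held 83.2%, 72.8% and 58.1%. With all 4 counted, the level of cellobiohydrolase I over cellobiohydrolase II was 2.51 on PDA (2.28 to 2.76), 2.23 on glucose (2.19 to 2.28) and 2.42 on poplar (2.35 to 2.50). The spread of this ratio was narrower than that of the chosen pair. Its interval on PDA overlapped that on poplar and met that on glucose at its lower bound. The intervals on glucose and poplar did not overlap, with the higher ratio on poplar. Cellobiohydrolase II held between 28.5% and 30.9% of all 5 gene models' summed level in the 3 libraries.

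**Figure D2:**
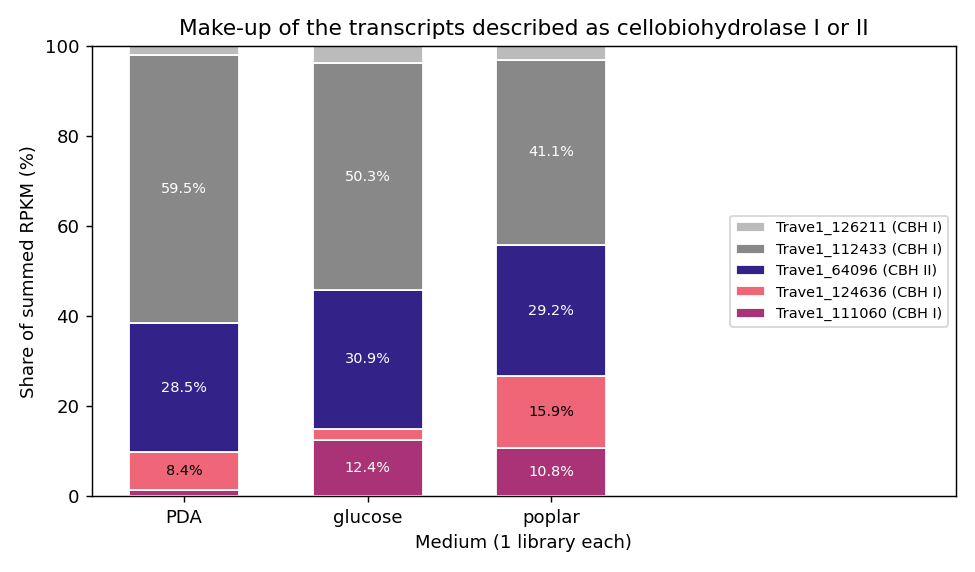
Share of the summed RPKM of the 5 gene models described as cellobiohydrolase I or II that each one held, in percent, with 1 stacked bar per library. The cellobiohydrolase II gene Trave1_64096 stays at 28.5 to 30.9%, Trave1_124636 is widest on poplar (15.9%), and Trave1_112433 is the widest in each library.

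To set these differences against all genes, gene models below 1 RPKM on both media of a comparison were set aside, and the rest were counted where RPKM plus 1 differed at least 2-fold. Between poplar and glucose, 1 of the 3 genes was higher and 2 were lower on poplar, where 8.10% of 10636 measured gene models were higher and 8.31% lower. Between poplar and PDA, 3 were higher and 0 lower on poplar, where 10.8% of 10506 were higher and 5.11% lower. Between glucose and PDA, 3 were higher and 0 lower on glucose, where 12.7% of 10487 were higher and 6.52% lower. These comparisons share libraries, and the genes were chosen on them, so nothing is read from their counts. The median log2 ratio of all measured gene models was 0.08, 0.09 and 0.01 in these comparisons.

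Glucose above poplar above PDA, with each step at least 2-fold, held for Trave1_111060 and Trave1_64096 and for 0.827% of the 10756 gene models measured in any library. Poplar above glucose above PDA, with each step at least 2-fold, held for Trave1_124636 and for 0.353%.

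**Figure D3:**
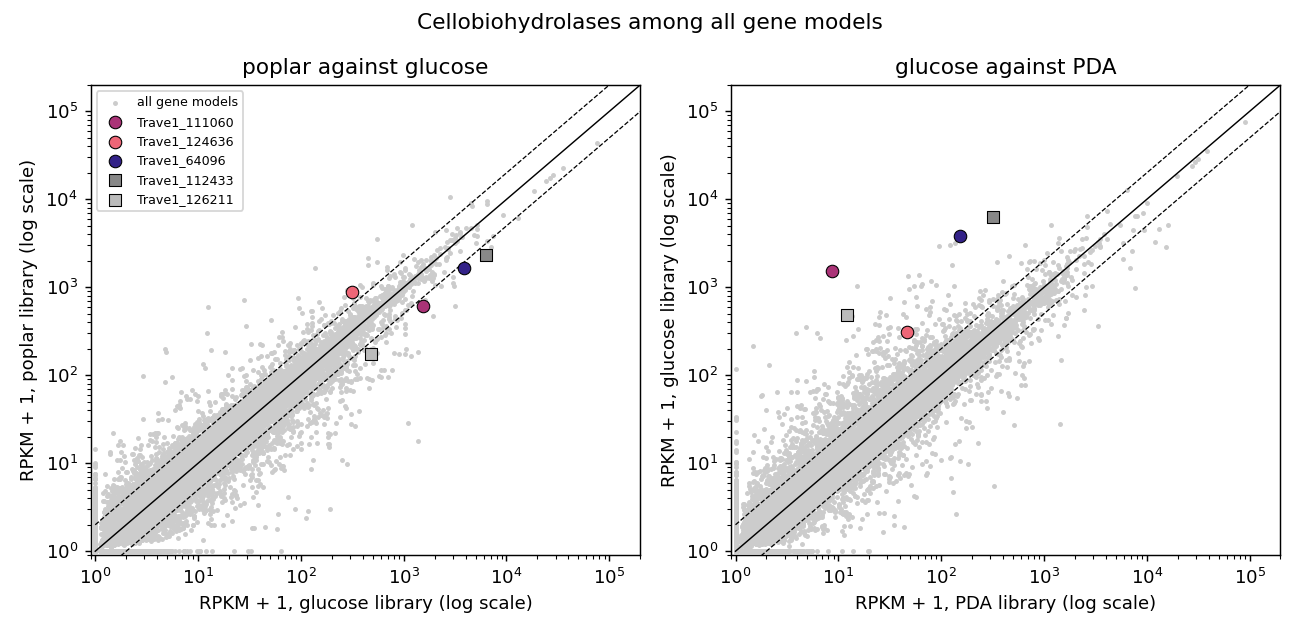
RPKM plus 1 of every gene model (grey points) on log axes, poplar against glucose on the left and glucose against PDA on the right. The solid line marks equal levels and the dashed lines a 2-fold difference, and coloured circles are the chosen genes and grey squares the 2 other cellobiohydrolase I gene models. On the left, Trave1_124636 lies above the upper dashed line and the other 4 below the lower one; on the right all 5 lie above the upper line.

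The rest of the cellulose-degrading machinery was described from 5 lists of gene models found by the wording of their descriptions, with the 3 genes left out. These hold 26 other gene models. Beyond counting error against both other libraries, 17 of them were highest on glucose, 2 on poplar and 0 on PDA, and for the other 7 the highest library could not be read. Of the 10756 gene models measured in any library, 10.7% were highest on glucose by the same rule, 9.03% on poplar and 9.28% on PDA. The rule is met more easily by gene models with many reads, and these shares were not matched for read number. The 2-fold order glucose above poplar above PDA was found in 8 of them, and poplar above glucose above PDA in 1, Trave1_34218, described as an endo-beta-1,4-glucanase. It measured 2.66, 6.72 and 56.8 RPKM on PDA, glucose and poplar, from 8, 19 and 168 reads.

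Among 7 endoglucanases, the enzymes that cut within the chain, 1 was higher and 3 lower on poplar than on glucose, and the median log2 ratio was −0.97. Against PDA, 5 of 6 measured were higher on poplar and 7 of 7 on glucose, with medians of 3.62 and 2.47. The counts on glucose, and the 3 lower on poplar, include Trave1_54041, named after its values were seen, which had 2 reads on glucose and 0 on the other media, so no fold can be read for it. The most abundant was Trave1_150878, at 30.8, 756 and 302 RPKM on PDA, glucose and poplar. Trave1_168288, described as endoglucanase V-like, measured 12.5, 471 and 376 RPKM, and the endocellulase Trave1_136387 measured 3.82, 357 and 182 RPKM. For both of these the difference between glucose and poplar was under 2-fold.

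The 7 genes listed for oxidative cleavage are 6 gene models described as glycoside hydrolase family 61 and a cellobiose dehydrogenase. Family 61 is the former name of a family of lytic polysaccharide monooxygenases. Of these 7 genes, 6 were highest on glucose beyond counting error. The exception, Trave1_40525, named after its values were seen, had 1, 10 and 3 reads on PDA, glucose and poplar, and its glucose to poplar ratio had an interval of 0.897 to 19.7. Between poplar and glucose, 0 were at least 2-fold higher and 4 lower on poplar, Trave1_40525 among them, and the median log2 ratio was −1.17. Against PDA, 6 of 7 were higher on poplar and 7 of 7 on glucose, with medians of 3.72 and 4.07. Trave1_162999 was the most abundant of the 7, at 94.96, 2983 and 1326 RPKM on PDA, glucose and poplar. Trave1_34454 measured 79.0, 1185 and 163 RPKM, Trave1_51274 measured 52.95, 1025 and 730 RPKM, and Trave1_45462 measured 27.8, 483 and 378 RPKM. Of these 4, Trave1_51274 and Trave1_45462 were within 2-fold between glucose and poplar.

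The 7 beta-glucosidases, which act on the cellobiose that cellobiohydrolases release, were lower in level than cellobiohydrolase II on glucose and poplar. Between poplar and glucose, 1 was higher and 0 lower on poplar, and the median log2 ratio was −0.24. Against PDA, 4 were higher on poplar (median 1.56), and 4 were higher and 1 lower on glucose (median 1.41). The most abundant, Trave1_55904, measured 241 RPKM on PDA, 87.2 on glucose and 352 on poplar, so that its lowest level was in the medium where cellobiohydrolase II was highest. The next were Trave1_171462 (15.9, 94.6 and 67.3 RPKM on PDA, glucose and poplar), Trave1_136522 (17.6, 92.6 and 57.7 RPKM) and Trave1_147088 (19.5, 53.5 and 59.5 RPKM).

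Among the 3 further gene models of the cellobiohydrolase list, 2 were the cellobiohydrolase I genes given above, and the list's medians were −1.44 (poplar against glucose), 2.86 (poplar against PDA) and 4.30 (glucose against PDA). The remaining one, Trave1_37432, is described as an oligoxyloglucan reducing end-specific cellobiohydrolase, an enzyme that acts on xyloglucan and not on cellulose. It measured 25.0 RPKM on PDA, 23.6 on glucose and 23.3 on poplar, and the poplar to glucose ratio was 0.987 (0.834 to 1.17). The list named cellulose binding and loosening held 2 genes, with medians of −2.45, 3.02 and 5.47 in the same order. Both are described as cellulose-growth-specific proteins, wording that by itself states neither binding nor loosening. Whether they belong with the genes of oxidative cleavage was not examined. Trave1_143649 measured 121, 3051 and 1114 RPKM on PDA, glucose and poplar, and Trave1_43328 measured 2.89, 305 and 26.9 RPKM.

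**Figure D4:**
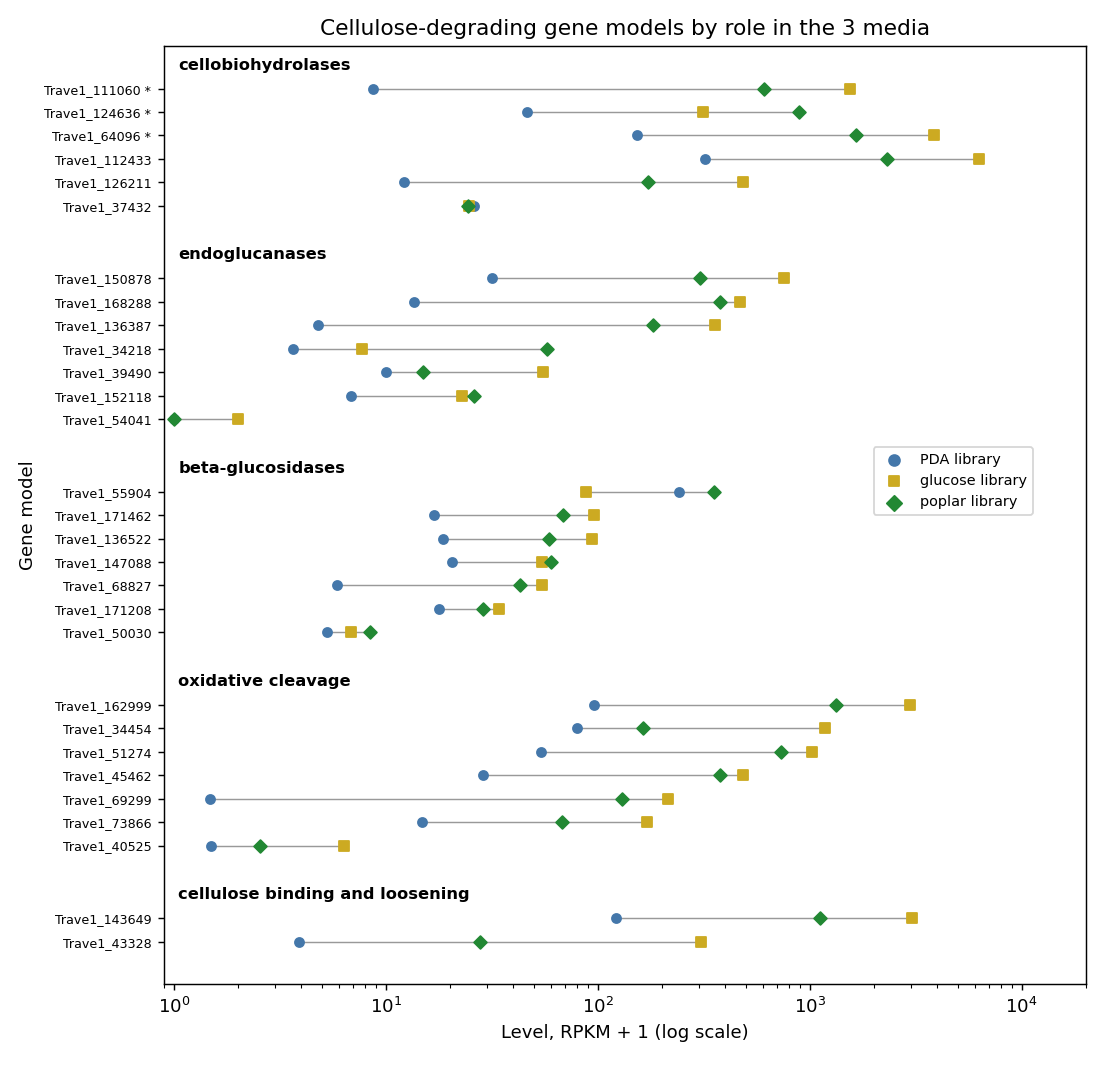
RPKM plus 1 on a log axis of the 29 gene models of the 5 lists, 1 row per gene model, with 1 symbol per library. Asterisks mark the chosen genes, and the grey line spans the libraries. Most rows have the PDA library at the left and the glucose library at the right, while Trave1_124636, Trave1_34218 and Trave1_55904 have the poplar library at the right beyond counting error.

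For each gene the 5 gene models with the most similar pattern were found by the Euclidean distance between log2 levels (RPKM plus 1) over the 3 libraries, each centred on its own mean, among 4297 gene models with at least 300 reads in all. With only 3 libraries, many unrelated genes can lie close. The nearest to cellobiohydrolase II was the endoglucanase Trave1_150878, at a distance of 0.12, followed by the cellulose-growth-specific protein Trave1_143649 (0.18), the family 61 gene Trave1_162999 (0.28) and the undescribed Trave1_47245 (0.28) and Trave1_161738 (0.31). The undescribed pair measured 48.1, 959 and 509 RPKM (Trave1_47245) and 13.0, 277 and 113 RPKM (Trave1_161738) on PDA, glucose and poplar.

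The genes nearest to Trave1_111060 were farther away. They were the family 61 gene Trave1_69299 (0.45; 0.477, 214 and 129 RPKM on PDA, glucose and poplar, with 1 read on PDA), the endocellulase Trave1_136387 (0.92), the endoglucanase V-like Trave1_168288 (1.68), the rhamnogalacturonase-like Trave1_141591 (1.68) and the cellobiohydrolase I Trave1_126211 (1.84). Cellobiohydrolase II lay at 2.26 and Trave1_124636 at 3.36 from Trave1_111060.

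None of the 5 gene models nearest to Trave1_124636 is described as a cellulose-degrading enzyme. They were the cerato-platanin Trave1_116538 (0.30), a small secreted fungal protein, ligninase C Trave1_115214 (0.33), a heme peroxidase that oxidises lignin units, the metalloprotease Trave1_164315 (0.42), the alpha-L-rhamnosidase-like Trave1_55973 (0.74) and the O-methyltransferase Trave1_28299 (0.78). Trave1_116538 measured 51.3, 321 and 755 RPKM on PDA, glucose and poplar, and Trave1_115214 measured 111, 553 and 1965 RPKM. Cellobiohydrolase II lay at 1.98 from Trave1_124636.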

How the data were processed

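For each of 3 libraries the authors deposited uniquely assigned read counts per gene model, which add up to the total their header states. RPKM values as deposited matched a recomputation from those reads, that total and the length. The deposited coverage is the percent of a gene model covered by reads, per the file headers. The gene model length was read as coding length, since 99.3% of lengths are multiples of 3. Cufflinks 2.0.1 appears in the submitters' processing notes with no role stated. The aligner is not given in the sources used here, nor are strandedness and genome build. Paralogs, overlapping and antisense transcripts are therefore uncertain. Sequences, promoters and genome neighbours were not analysed here.

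The members and lists were chosen with earlier results of these data known. A gene model absent from a table was given 0 reads. Gene models with at least 1 RPKM in either library entered a comparison. Log2 ratios used RPKM plus a pseudocount of 1. Count ratios carry exact conditional (Clopper-Pearson) 95% intervals, single counts exact Poisson intervals and shares exact binomial intervals. Lists were matched to descriptions, ignoring case. That family 1 of the carbohydrate-binding modules was read as a whole number was decided after the matches were seen. Named genes were the members, the 4 highest in each list and the 5 nearest patterns. Chosen after their values were seen were Trave1_54041, Trave1_40525, the 3 gene models that only a KEGG name marks as cellobiosidases, and the count of gene models highest on a medium beyond counting error. Python 3.11.15, scipy 1.17.1 and edgeR 4.0.16 (for normalization factors only) were used. The interval and the 2-fold count were tested on simulated data with Poisson counting error only, the error that the intervals assume. Library differences, PCR copies and gene models with few reads were not part of that test, so it says nothing of them.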

Additional observations from a re-analysis of the deposited data

How the results depend on the processing

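No paired analysis was possible because each medium has 1 library. All 9 log2 ratios of the 3 genes were recomputed under 6 alternatives, and all 54 values kept their sign and their side of 2-fold. Those that moved beyond counting error came, by construction, from the scaling or the pseudocount. The scalings shifted ratios by at most 0.15 on the log2 scale, and the smallest ratio in size was −1.23. They could therefore hardly move a value across 2-fold. Poplar against glucose, Trave1_111060 was −1.35 as deposited, −1.44 with median-of-ratios scaling, −1.44 with edgeR's TMM and −1.26 as TPM, and Trave1_64096 was −1.23, −1.32, −1.32 and −1.14. Poplar against PDA, Trave1_64096 was 3.42 as deposited and 3.57 as TPM, a scaling that shifts the median gene model by 0.15, and Trave1_111060 was 6.13 and, with a pseudocount of 5, 5.59. Glucose against PDA, Trave1_111060 was 7.48 and, with a pseudocount of 5, 6.94. The order of the 3 levels within a library cannot change under a scaling between libraries, nor under a shortening of nearly equal lengths, so these alternatives say nothing of its stability. Shares of RPKM lay within the binomial intervals of shares of reads.

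With a pseudocount of 5, 321 gene models were higher and 468 lower on poplar than on glucose, 505 and 248 on poplar than on PDA, and 735 and 330 on glucose than on PDA. With a minimum RPKM of 10 these counts were 420 and 547, 617 and 316, and 864 and 428, since fewer gene models were measured. The counts as reported were 861 and 884, 1136 and 537, and 1334 and 684.

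With KEGG names added to the descriptions, more gene models entered the lists. The widened endoglucanase list also holds genes described otherwise, among them Trave1_126211 (cellobiohydrolase I), Trave1_69299 (family 61) and Trave1_143649 (cellulose-growth-specific). A gene model can thus count in several lists, so the counts of these lists are not separate. The cellobiohydrolase list (6 gene models without the chosen genes) then had medians of −1.08 (poplar against glucose), 2.80 (poplar against PDA) and 3.97 (glucose against PDA), with 5 higher than PDA in either medium. The endoglucanase list had 2 higher and 11 lower of 32 measured in poplar against glucose (median −0.46), 24 higher and 1 lower of 32 in poplar against PDA (2.51) and 24 higher and 1 lower of 33 in glucose against PDA (2.98). The beta-glucosidase list had 1 higher and 2 lower of 29 in poplar against glucose (median −0.042), 9 higher and 1 lower of 28 in poplar against PDA (0.69) and 9 higher and 2 lower of 29 in glucose against PDA (0.65). Of all measured gene models, 8.10% were higher and 8.31% lower, 10.8% and 5.11%, and 12.7% and 6.52% in these comparisons. With family 1 also matched as the first digit of a longer number, chosen after seeing the data, a family 12 carbohydrate-binding protein joined the binding list, whose medians became −1.45, 2.85 and 4.64. The count of Trave1_111060 on PDA, 30 reads, limits its ratios against that library.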

Other observations

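A further 3 gene models carry the KEGG name cellulose 1,4-beta-cellobiosidase under another description. Trave1_162093, described as a mannanase, measured 62.5 RPKM on PDA, 1043 on glucose and 199.8 on poplar, and was 5.22-fold lower on poplar than on glucose (95% counting interval 4.82 to 5.65). The undescribed Trave1_133690 measured 24.1, 372 and 224 RPKM in the same order of media, 1.66-fold lower on poplar than on glucose (1.48 to 1.87). Trave1_45678, described as CBD9-like, measured 32.0, 151 and 220 RPKM, and was 1.46-fold higher on poplar than on glucose (1.27 to 1.68). Each was lowest on PDA, but these 3 were named after their values were seen, so nothing is read from that. The share of all gene models that were lowest on PDA was not counted.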
